A study of Mus musculus with 6 samples.

Results

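Transcripts of 10 genes of mitochondrial fusion and fission, out of 54532 gene identifiers measured, were followed in the left ventricular myocardium of 6 mice. The genes were taken by name and not by a cut on their values, though earlier results of these data were known. Mfn1, Mfn2 and Opa1 drive fusion, Dnm1l, Fis1, Mff and Mief1 drive fission, Oma1 and Yme1l1 encode proteases that cut the Opa1 protein, and Tfam encodes the protein that packages mitochondrial DNA. Each symbol matched 1 identifier, and all 10 genes passed the filter on low values in both groups. RNA-seq libraries came from 3 control (Chow) and 3 HFpEF mice, with 1 library per mouse. HFpEF is heart failure with preserved ejection fraction. All were male C57BL/6 mice, 6 to 8 weeks old at the start, so the comparison holds for males of 1 strain. The HFpEF group ate a high-fat diet with 60% of kcal from fat and drank water with 0.5 g/L of L-NAME, which blocks nitric oxide synthase, for 12 weeks. The Chow group had standard chow and plain drinking water, so diet and L-NAME cannot be told apart.

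Mitochondria fuse and divide continuously. Mitofusin 1 and mitofusin 2 (Mfn1, Mfn2) are GTPases that join outer membranes, and Opa1 is the GTPase that joins inner membranes and shapes cristae. Division is carried out by Drp1, the product of Dnm1l, a cytosolic GTPase that is brought to the outer membrane by adaptors including Mff and MiD51 (Mief1), while Fis1 is an outer-membrane protein linked to division. Yme1l1 cleaves Opa1 under basal conditions, and Oma1 cleaves it when the membrane potential is lost. Cardiomyocytes hold a dense array of mitochondria, and the heart depends on both mitofusins and on Drp1. Gene-level RNA values show neither the cleaved forms of Opa1 nor the phosphorylation of Drp1.

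The fusion transcripts were the ones that differed most between groups, and Mfn2 and Mfn1 were also the most abundant of the 10. All 3 were lower in every HFpEF library than in every Chow library, which held for 19.7% of all genes tested. Their means were 30.8% to 31.6% lower. The 4 fission transcripts overlapped between groups and differed by 14.5% or less. On a scale of reads per library the fusion transcripts were again below every Chow library, by smaller amounts, as were 6.83% of all genes tested. The sign of the fission genes turned on that scale, as given further on. None of the 10 genes met the thresholds in the study's methods for a differentially expressed gene (DEG), in a fit that is not the study's own test. In that fit 8 of 14227 genes (0.0562%) met them. On the deposited scale HFpEF replicate 3 was the lowest HFpEF library for all 10 genes, for Fis1 by a small margin over replicate 1. On the scale of reads per library it was the highest HFpEF library for Fis1 and Yme1l1, and Tfam was lowest in HFpEF replicate 1.

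The start regions of 5 of the genes are printed to show what the fusion genes do and do not share with Mief1 and Yme1l1. On the deposited scale the fusion genes were lower together, and the means of Mief1 and Yme1l1 were nearly equal in the groups. The windows run from 250 bases before to 50 bases after a RefSeq transcription start on GRCm38.p6, and all 10 genes matched 15 such windows. For each gene printed, the window is the one nearest the start of the gene in GENCODE. Capitals mark matches, on either strand, to CCGGAAG, a core site of ETS factors such as GABP, or to CGCANGCG, part of the site of NRF1.
Mfn1, chr3:32529232-32529531, plus strand: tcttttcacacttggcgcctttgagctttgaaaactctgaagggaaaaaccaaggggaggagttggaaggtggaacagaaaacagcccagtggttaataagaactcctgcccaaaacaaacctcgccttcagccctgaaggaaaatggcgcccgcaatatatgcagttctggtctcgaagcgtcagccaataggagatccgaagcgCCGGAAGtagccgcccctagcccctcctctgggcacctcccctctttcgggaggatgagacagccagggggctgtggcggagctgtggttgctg
Mfn2, chr4:147904649-147904948, minus strand: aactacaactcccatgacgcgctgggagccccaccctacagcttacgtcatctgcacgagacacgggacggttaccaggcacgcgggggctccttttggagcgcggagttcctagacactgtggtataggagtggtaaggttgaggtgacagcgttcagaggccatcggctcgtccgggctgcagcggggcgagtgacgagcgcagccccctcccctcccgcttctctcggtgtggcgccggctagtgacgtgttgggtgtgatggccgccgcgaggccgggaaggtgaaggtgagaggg
Opa1, chr16:29579084-29579383, plus strand: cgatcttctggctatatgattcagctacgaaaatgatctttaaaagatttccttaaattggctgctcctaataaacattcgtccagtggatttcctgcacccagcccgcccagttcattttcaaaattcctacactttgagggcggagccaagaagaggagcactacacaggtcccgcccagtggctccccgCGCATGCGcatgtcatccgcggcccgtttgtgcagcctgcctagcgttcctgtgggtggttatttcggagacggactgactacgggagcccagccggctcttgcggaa
Mief1, chr15:80233830-80234129, plus strand: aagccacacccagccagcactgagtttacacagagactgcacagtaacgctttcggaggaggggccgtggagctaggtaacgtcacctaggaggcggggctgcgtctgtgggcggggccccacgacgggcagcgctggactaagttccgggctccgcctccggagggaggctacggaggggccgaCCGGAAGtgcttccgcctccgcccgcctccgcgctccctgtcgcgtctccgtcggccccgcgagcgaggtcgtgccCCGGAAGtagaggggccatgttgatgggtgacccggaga
Yme1l1, chr2:23156255-23156554, plus strand: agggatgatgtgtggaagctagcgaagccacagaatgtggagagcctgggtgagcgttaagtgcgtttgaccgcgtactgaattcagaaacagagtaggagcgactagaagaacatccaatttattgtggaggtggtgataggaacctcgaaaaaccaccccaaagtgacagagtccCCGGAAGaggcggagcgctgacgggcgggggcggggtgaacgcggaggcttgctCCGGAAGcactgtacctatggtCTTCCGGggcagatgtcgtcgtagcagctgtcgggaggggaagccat
Of the 3 fusion genes, Mfn1 has a CCGGAAG match at position −44 from its RefSeq start and Opa1 has a CGCANGCG match at −58, while the Mfn2 window holds neither. CCGGAAG matched in 7 of the 15 windows, in Mfn1, Dnm1l, Fis1, Mief1, Yme1l1 and Tfam. It was present in 8.86% of all 32851 RefSeq windows of this length and in 16.6% of the 12728 windows of the genes tested here. CGCANGCG matched in Opa1 and Oma1, against 8.21% of all windows and 16.2% of those of tested genes. The letters AAGGTCA, a site of estrogen-related receptors, were found in 0 of the 15 windows, against 4.72% and 3.21%. None of the 3 motifs was found in all 3 fusion genes, and a match describes letters and not binding.

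Recovered reads totalled 13076772 to 15574914 per Chow library and 13461735 to 16027084 per HFpEF library, and each of the 10 genes rested on 307 to 13754 reads per library. HFpEF replicate 3 stood apart from the others, at 75.5 on the first principal component (42.3% of the variance) against 11.6 and 12.7 for HFpEF replicates 1 and 2 and −35.8 to −31.7 for Chow. The fitted values of the 10 genes without it are given for those that turn on it, and the gene lists are also counted without it. The paper's methods name the left ventricle, while the sample labels say heart, and no atrial marker was examined. The heart label fitted its markers, since all 10 ventricular cardiomyocyte markers were abundant. Their summed FPKM (a gene's fragment count divided by its exon length and by a scale for each library) was 15914 to 17528 in Chow. Their sum was 7668 to 11922 in HFpEF, and all 10 were lower in every HFpEF library. Fibroblast markers summed to 215.1 to 252.1 in Chow and to 415.6, 488.5 and 5512 in HFpEF replicates 1, 2 and 3. Adipocyte markers summed to at most 0.0481 in Chow, where 4 of 6 were at 0 in every library, and to 36.2 to 88.9 in HFpEF. The 4 brown adipocyte markers summed to 627.5 to 919.1 in Chow and 298.0 to 480.5 in HFpEF. Nearly all of that sum was Cox8b, which heart muscle also expresses and which was lower in every HFpEF library (log2 fold change −0.94), with Cidea at −0.28 and Elovl3 at most 0.0395 FPKM. Ucp1, the defining brown adipocyte gene, was at 0 in all Chow libraries and at 6.00, 8.33 and 0 in HFpEF. Endothelial markers summed to 169.3 to 183.5 in Chow and 134.2 to 143.7 in HFpEF. Of these, Cdh5, Kdr and Tie1 were lower in every HFpEF library, while Pecam1 (−0.06) and Emcn (−0.12) overlapped between groups. Macrophage markers summed to 69.0 to 87.1 in Chow and 87.9 to 233.5 in HFpEF. The 6 skeletal muscle markers summed to 1.495 to 2.81 and 2.11 to 2.55, with Myh4 at 0 in every library. In bulk tissue, fewer cells of a type and less RNA per cell cannot be told apart. The part that these differences in marker levels play in the values of the 10 genes was not tested.

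Mfn2 (ENSMUSG00000029020, chr4:147873599-147904704 of GRCm38, minus strand) was the most abundant of the 10 transcripts, above 98.5% of the genes tested in Chow hearts. In replicates 1, 2 and 3 its FPKM was 186, 176 and 174 for Chow, against 151, 135 and 84.9 for HFpEF. All HFpEF libraries lay below all Chow libraries, and replicate 3 lay well below the other HFpEF hearts. Means were 179 ± 6.28 (SD, n = 3) for Chow and 124 ± 34.4 (SD, n = 3) for HFpEF. The log2 fold change of HFpEF against Chow, on log2(FPKM + 0.1), was −0.57 (95% confidence interval −1.12 to −0.03, adjusted p = 0.1998 from limma over 14227 genes).

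Mfn1 (ENSMUSG00000027668, chr3:32529465-32579239, plus strand) was next in abundance. Its FPKM was 72.2, 67.2 and 66.0 in Chow and 51.4, 52.8 and 36.3 in HFpEF, again without overlap. The mean was 68.5 ± 3.27 (SD, n = 3) against 46.8 ± 9.13 (SD, n = 3), a log2 fold change of −0.57 (interval −0.97 to −0.17, adjusted p = 0.140, limma). Of the 10 genes, Mfn1 had the smallest unadjusted p, at 0.0128 in the limma fit. The ratio of Mfn2 to Mfn1 FPKM within a library was 2.61 ± 0.0332 (SD, n = 3) for Chow and 2.61 ± 0.298 (SD, n = 3) for HFpEF. The mean ratio was thus about the same. Single HFpEF libraries, at 2.93, 2.57 and 2.34, lay on either side of the Chow range of 2.58 to 2.64.

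Opa1 (ENSMUSG00000038084, chr16:29579334-29654884, plus strand) had an FPKM of 32.6, 34.5 and 35.0 in Chow and 27.3, 26.8 and 15.9 in HFpEF. HFpEF replicates 1 and 2 were 19.98% and 21.2% below the Chow mean and replicate 3 was 53.3% below it. The mean was 34.1 ± 1.29 (SD, n = 3) against 23.3 ± 6.43 (SD, n = 3), a log2 fold change of −0.59 (interval −1.11 to −0.07, adjusted p = 0.185, limma). The inner-membrane and outer-membrane fusion transcripts kept their proportion, with a Mfn2 to Opa1 ratio of 5.26 ± 0.390 (SD, n = 3) for Chow and 5.30 ± 0.241 (SD, n = 3) for HFpEF. For each of the 3 fusion genes the exact two-sided permutation test of mean FPKM gave p = 0.1, which is the lowest value possible with 3 mice a group.

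**Figure D1:**
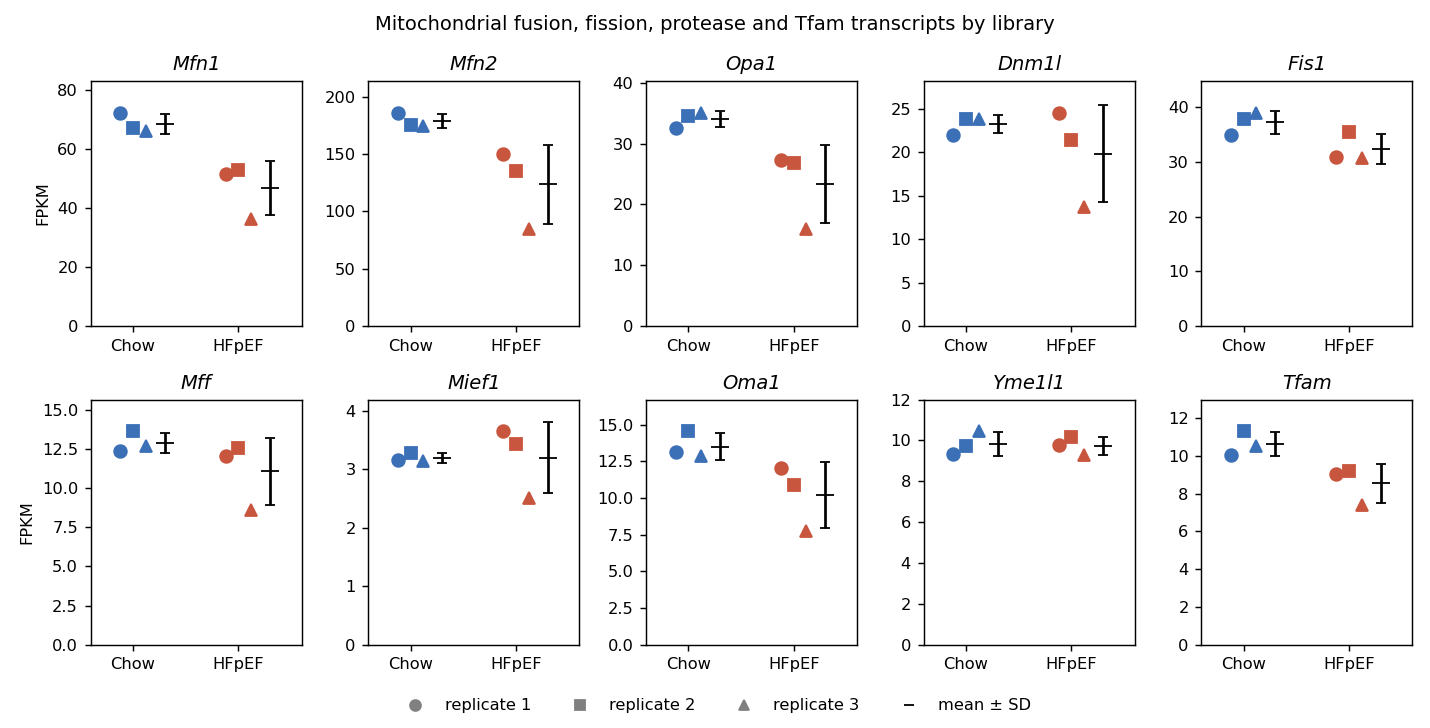
FPKM of the 10 genes in each library (y axis from 0, one panel per gene), for 3 Chow (blue) and 3 HFpEF (red) mice, with marker shape for replicate number and bars for the mean ± SD. Mfn1, Mfn2, Opa1, Oma1 and Tfam do not overlap between groups, and the HFpEF triangles of replicate 3 pull the means down for most genes, such as Mfn2 at 84.9.

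Dnm1l (ENSMUSG00000022789, chr16:16312230-16358959, minus strand), which encodes the division GTPase Drp1, did not separate the groups. Its FPKM was 22.1, 23.8 and 23.9 in Chow and 24.6, 21.4 and 13.7 in HFpEF. HFpEF replicate 1 was the highest of all 6 libraries and replicate 3 the lowest. The log2 fold change was −0.27 (interval −0.79 to 0.25, adjusted p = 0.469, limma) and −0.02 (interval −0.23 to 0.19) without HFpEF replicate 3, so the lower mean rested on that library.

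Among the genes for outer-membrane proteins of fission, Fis1 (ENSMUSG00000019054, chr5:136953275-136966234, plus strand) was the most abundant. It had an FPKM of 35.0, 37.9 and 39.0 in Chow and 30.9, 35.6 and 30.7 in HFpEF, where only replicate 2 reached the Chow range. Its log2 fold change was −0.21 (interval −0.47 to 0.06, adjusted p = 0.298, limma). Fis1 was the gene of the fusion and fission groups least drawn down by HFpEF replicate 3, which was 17.6% below the Chow mean against 17.2% for replicate 1.

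Mff (ENSMUSG00000026150, chr1:82724890-82752394, plus strand), a receptor for Drp1, had an FPKM of 12.4, 13.7 and 12.7 in Chow and 12.1, 12.6 and 8.61 in HFpEF. HFpEF replicates 1 and 2 were within 6.55% of the Chow mean. The log2 fold change was −0.24 (interval −0.62 to 0.15, adjusted p = 0.390, limma) and −0.07 without HFpEF replicate 3.

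Mief1 (ENSMUSG00000022412, chr15:80234018-80253371, plus strand), which encodes the adaptor MiD51, was the least abundant of the 10 transcripts, above 43.1% of the genes tested. Its FPKM was 3.15, 3.28 and 3.13 in Chow and 3.64, 3.44 and 2.51 in HFpEF. Replicates 1 and 2 lay above every Chow library and replicate 3 lay below every one, so the means were nearly equal, at 3.19 ± 0.0801 (SD, n = 3) and 3.20 ± 0.604 (SD, n = 3). The log2 fold change was −0.02 (interval −0.41 to 0.38, adjusted p = 0.962, limma) and 0.15 (interval −0.11 to 0.40) without HFpEF replicate 3. Exact two-sided permutation tests gave p = 0.6 for Dnm1l, 0.2 for Fis1, 0.2 for Mff and 1 for Mief1. The intervals of Dnm1l and Mff reached −0.79 and −0.62, past the fitted values of the fusion genes, so a decrease of that size was not separable from no difference for these genes with 3 mice a group.

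Exons of Dnm1l, Mff and Mief1 overlap those of other annotated genes by 243, 195 and 213 bases, which is 4.67%, 2.00% and 2.63% of their exon length. The overlapping genes, Gm49521, C430014B12Rik and AC140267.1, had an FPKM of at most 0.120, so little of the signal could be assigned either way.

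Of the proteases that cut Opa1, Oma1 was lower in HFpEF hearts and Yme1l1 was level on the deposited scale. With FPKM set to the read total, Oma1 (−0.13) overlapped between groups. Yme1l1 (0.28) then lay above the Chow range, as did 37.2% of all genes tested. Oma1 (ENSMUSG00000035069, chr4:103313812-103371868, plus strand) had an FPKM of 13.2, 14.5 and 12.8 in Chow and 12.0, 10.9 and 7.73 in HFpEF, without overlap (exact two-sided permutation test, p = 0.1). Its log2 fold change was −0.43 (interval −0.85 to −0.01, adjusted p = 0.210, limma), and 320 to 402 reads stood behind each value. Yme1l1 (ENSMUSG00000026775, chr2:23156369-23199260, plus strand) had an FPKM of 9.31, 9.73 and 10.4 in Chow and 9.79, 10.2 and 9.27 in HFpEF. It had the narrowest interval of the 10 genes, with a log2 fold change of −0.01 (−0.24 to 0.21, adjusted p = 0.941, limma), and it was the only one in which HFpEF replicate 3 was within 5.66% of the Chow mean. The ratio of Oma1 to Yme1l1 FPKM, taken within each library and so unaffected by a single scale factor per library, was 1.38 ± 0.136 (SD, n = 3) for Chow and 1.04 ± 0.199 (SD, n = 3) for HFpEF. It came to 1.23 in both Chow replicate 3 and HFpEF replicate 1, where the groups met.

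Tfam (ENSMUSG00000003923, chr10:71225464-71238280, minus strand), needed for transcription and maintenance of mitochondrial DNA, had an FPKM of 10.03, 11.3 and 10.5 in Chow and 9.03, 9.20 and 7.37 in HFpEF. All HFpEF libraries lay below all Chow libraries, by 13.3% to 30.6% of the Chow mean (exact two-sided permutation test, p = 0.1). The log2 fold change was −0.32 (interval −0.61 to −0.03, adjusted p = 0.188, limma). The 13 protein-coding genes of mitochondrial DNA, whose transcription needs Tfam, had a median log2 fold change of −1.07. All 13 had a lower mean and 10 had every HFpEF library below every Chow library, which held for 19.7% of all genes tested. Of the 13, 1 (mt-Co2, −1.22) had a lower mean at an unadjusted p under 0.05, as did 13.1% of all genes tested, and 0 passed the adjusted p (limma). Mitochondrially encoded genes took 24.5%, 26.0% and 24.0% of reads in Chow and 22.6%, 20.1% and 7.17% in HFpEF. That share of RNA and the deposited FPKM of Tfam were both lowest in HFpEF replicate 3. With FPKM set to the read total, Tfam was at 9.29, 9.73 and 9.37 in HFpEF, lowest in replicate 1. Without HFpEF replicate 3 the median of the 13 genes, on deposited FPKM, was −0.42.

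Across the 10 genes, 0 were DEGs at an adjusted p under 0.05 with a log2 fold change of 2 or more in size. In this limma fit of FPKM, 8 of 14227 genes (0.0562%) met that definition. The paper used DESeq2 and reported far more DEGs, nearly all higher, so its test and this fit are not alike. Its methods give an adjusted p and its results a p. At an adjusted p under 0.05 alone the count among the 10 genes was 0, where 14 genes (0.0984%) passed over all genes tested (limma). Voom on recovered reads called 0 of the 10 and 0 of 14222 genes in all. Of those 14222 genes, 1774 were lower and 1558 higher at an unadjusted p under 0.05. At an unadjusted p under 0.05, 5 of the 10 were lower (Mfn1, Mfn2, Opa1, Oma1 and Tfam) and 0 higher, while 13.1% of all genes tested were lower at that level. The same 5 genes had every HFpEF library below every Chow library, which held for 19.7% of all genes tested. The unadjusted count of 5 was 2 (Mfn1 and Tfam) with quantile normalization, where Mfn2 was at −0.28, and 3 (Mfn1, Mfn2 and Opa1) with eBayes without its trend and robust options. It dropped to 1, Mfn1, when any 1 of Chow replicates 1, 2 or 3 was left out. It was 4 without HFpEF replicate 2, and 5 without HFpEF replicate 1 or without HFpEF replicate 3. The share of all genes tested that was lower at that level was 11.8% with quantile normalization and 11.6% without the trend and robust options. That share was 7.5% to 8.39% without 1 Chow library, where the count of 1 in 10 was near it. Without 1 HFpEF library it was 13.8% to 14.8%.

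The deposited FPKM carry a scale for each library that ran with the group. The scale was 0.914, 0.897 and 0.912 times the recovered read total in Chow and 1.03, 1.06 and 1.27 times in HFpEF. With FPKM set to the read total instead, an alternative added after the data were seen, the median log2 fold change of all genes tested moved from −0.01 to 0.28. Mfn1 was then at 66.0, 60.3 and 60.2 in Chow and 52.9, 55.8 and 46.2 in HFpEF, a log2 fold change of −0.27 (adjusted p = 0.165, limma). Mfn2 was at −0.28 and Opa1 at −0.29, and all 3 fusion genes kept every HFpEF library below every Chow library, which held for 6.83% of all genes tested on that scale. Their values lay 0.55 to 0.57 below the median of all genes. Oma1 (−0.13) and Tfam (−0.02) overlapped between groups on that scale. Dnm1l (0.03), Fis1 (0.09), Mff (0.06), Mief1 (0.27) and Yme1l1 (0.28) turned positive, and Mief1 and Yme1l1 lay above the Chow range. On that scale 37.2% of all genes tested lay above the Chow range. At an unadjusted p under 0.05 Mfn1 was lower and Yme1l1 higher, and 0 of the 10 passed the adjusted p (limma). Of all 14227 genes tested, 590 (4.15%) were lower and 3563 higher at that unadjusted level, and 73 passed the adjusted p. The read total includes the mitochondrially encoded reads, whose share was lowest in HFpEF replicate 3. Directions of the fission genes therefore rest on the scaling, and the fusion genes were below them on each of these scales.

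Leaving out HFpEF replicate 3 made the differences of Mfn1, Mfn2 and Opa1 smaller, and their standard errors smaller in greater proportion. The log2 fold change was then −0.39 (standard error 0.06, adjusted p = 0.0251) for Mfn1, −0.32 (0.07, 0.0454) for Mfn2 and −0.33 (0.06, 0.0373) for Opa1 from limma. These 3 of the 10 genes passed the adjusted p in that fit, all lower, against 763 of 14227 genes (5.36%) lower over all genes tested. Oma1 (−0.24, adjusted p = 0.171) and Tfam (−0.22, adjusted p = 0.174) remained below the Chow range without passing it (limma). The fission genes had adjusted p values from 0.306 for Fis1 to 0.916 for Dnm1l (limma). The SD of Mfn2 FPKM in HFpEF was 5.47 times that in Chow with all 3 HFpEF mice, and that of Opa1 4.99 times. The fits of 6 libraries took a single variance per gene over both groups, on log2 values, and did not model this unequal spread.

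**Figure D2:**
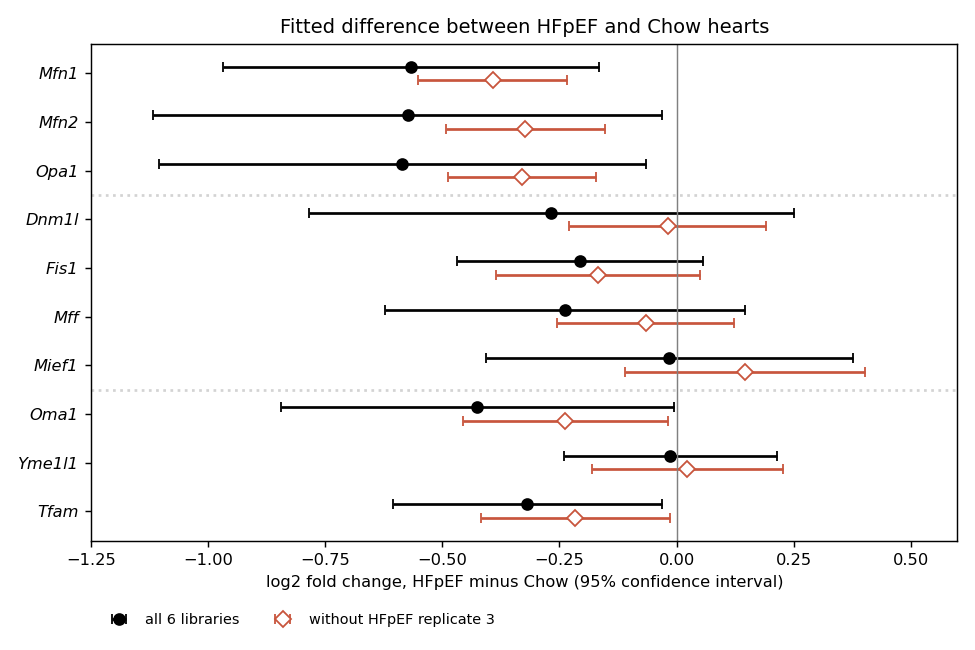
Fitted log2 fold change of HFpEF against Chow (x axis, 95% confidence interval) for the 10 genes, from all 6 libraries (black) and without HFpEF replicate 3 (red, open), with dotted lines between fusion, fission and the other genes. Without replicate 3 the fusion genes move from about −0.57 to between −0.39 and −0.32 with narrower intervals, while Dnm1l, Mff, Mief1 and Yme1l1 lie near 0 or above it.

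Within each library, the balance of fusion over fission transcripts was lower in HFpEF hearts. The mean log2 FPKM of Mfn1, Mfn2 and Opa1 minus that of Dnm1l, Fis1, Mff and Mief1 was 2.53, 2.39 and 2.41 in Chow and 2.14, 2.10 and 1.91 in HFpEF. The groups did not overlap, and the difference of −0.39 between means of 2.44 ± 0.0743 (SD, n = 3) and 2.05 ± 0.124 (SD, n = 3) was present in HFpEF replicates 1 and 2 as well as in replicate 3. A single scale factor per library leaves this difference as it is, but with quantile normalization, which reshapes each library, it was −0.23. Such a balance was not taken for other sets of genes, so whether it is particular to fusion and fission was not tested. The fusion genes were lower by about as much as other mitochondrial transcripts, as given further on. Summed FPKM of the fusion genes was 275.6 to 290.7 in Chow and 137.1 to 229.2 in HFpEF, and that of the fission genes 72.6 to 78.7 and 55.5 to 73.0, which overlap at the edge. The ratio of Opa1 to Dnm1l had the least spread of the ratios examined in Chow, at 1.47 ± 0.0143 (SD, n = 3), and was 1.18 ± 0.0732 (SD, n = 3) for HFpEF. That of Mfn2 to Dnm1l was 7.71 ± 0.624 (SD, n = 3) and 6.22 ± 0.101 (SD, n = 3).

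In order of FPKM, which is per exon length, Chow hearts had Mfn2, Mfn1, Fis1, Opa1, Dnm1l, Oma1, Mff, Tfam, Yme1l1 and Mief1. Neighbours whose library ranges overlapped were Fis1 and Opa1, Oma1 and Mff, and Tfam and Yme1l1. In HFpEF hearts Mff stood ahead of Oma1 and Yme1l1 ahead of Tfam, and Opa1 overlapped Dnm1l. The ranges of Mff, Oma1 and Yme1l1 also overlapped there, so those places are not resolved.

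The means of the fusion genes were lower by about as much as those of a reference of other transcripts for mitochondrial proteins, and those of the fission genes by less. The reference of 12 genes (Cs, Vdac1, Vdac2, Vdac3, Tomm20, Tomm22, Tomm40, Timm23, Hspd1, Hspa9, Cycs and Slc25a4) had a mean log2 level of −0.42, −0.34 and −0.94 against the Chow mean in HFpEF replicates 1, 2 and 3. Relative to it, the difference between group means was −0.00 for Mfn1, −0.01 for Mfn2 and −0.02 for Opa1 on the log2 scale, and all 3 overlapped between groups. On the same scale Dnm1l was at 0.50, 0.22 and 0.18 in the HFpEF libraries against −0.06 to 0.04 in Chow. Mff was at 0.32, 0.30 and 0.36 against −0.05 to 0.09, and Mief1 at 0.61, 0.45 and 0.60 against −0.04 to 0.05. Dnm1l, Fis1, Mff, Mief1, Yme1l1 and Tfam were higher in each HFpEF library than in any Chow library on this scale, with differences from 0.25 for Tfam to 0.55 for Mief1 and Yme1l1 (exact two-sided permutation test, p = 0.1 each). The same held for 59.3% of all genes tested, since the reference itself was lower while the median gene was level, so 6 of 10 is close to the share of all genes. The direction of these 6 genes depended on whether the level was taken per library or per mitochondrial transcript. HFpEF replicate 3, which stood apart on FPKM, lay at 0.03 for Mfn1, −0.13 for Mfn2 and −0.15 for Opa1 on this scale.

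Relative to the 10 ventricular cardiomyocyte markers, whose mean log2 level was −0.49, −0.47 and −1.12 in the HFpEF libraries, none of the 10 genes was lower. Differences were 0.13 for Mfn1, 0.12 for Mfn2 and 0.11 for Opa1, with overlap between groups, and 0.43 for Dnm1l, 0.49 for Fis1, 0.45 for Mff and 0.68 for Mief1 without overlap. Oma1 (0.27), Yme1l1 (0.68) and Tfam (0.37) were also above the Chow range. These 7 of 10 stand beside 68.3% of all genes tested that were above the Chow range on that scale. Both references were chosen as alternatives after the values had been seen, and both were themselves lower in HFpEF hearts, lowest in replicate 3.

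**Figure D3:**
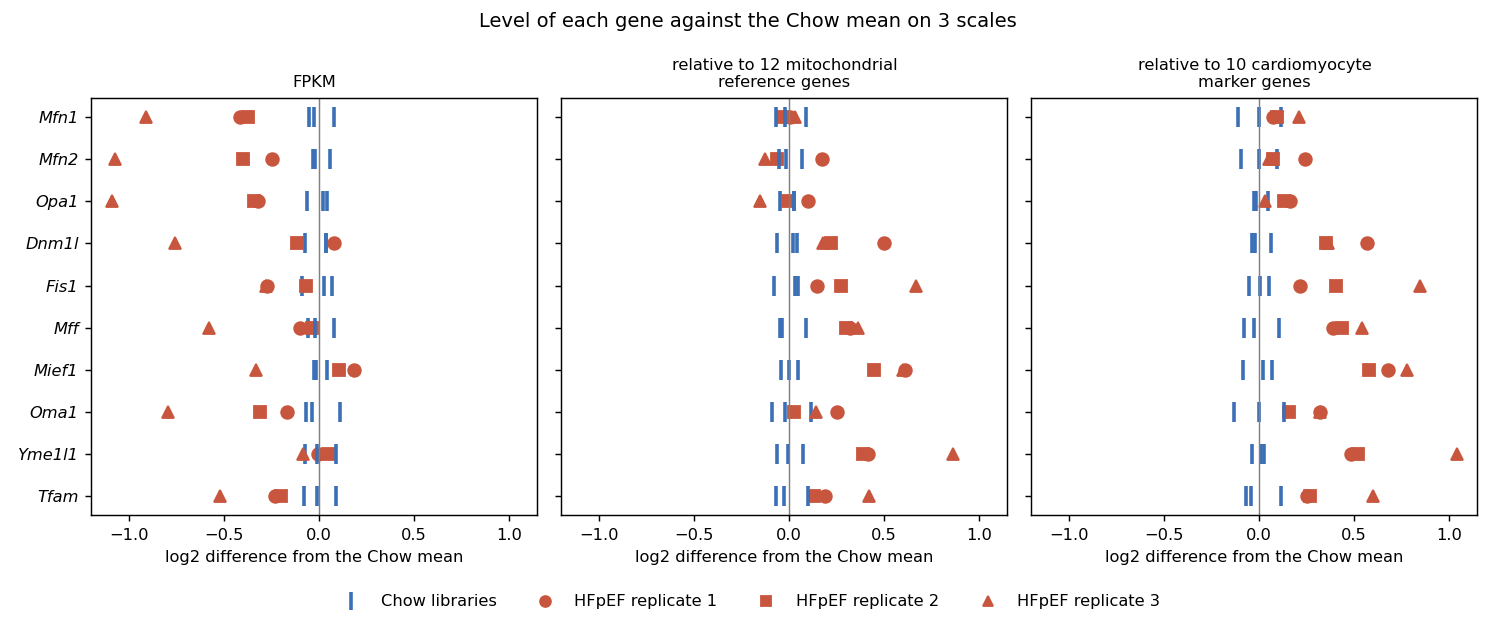
Log2 difference from the Chow mean (x axis) of each gene on FPKM (left), relative to 12 mitochondrial reference genes (middle) and relative to 10 cardiomyocyte markers (right), for Chow libraries (blue bars) and HFpEF replicates (red). Mfn1, Mfn2 and Opa1 lie left of Chow on FPKM. In the middle panel Mfn1 lies among the Chow libraries. Mfn2 (0.17, −0.06 and −0.13 in HFpEF replicates 1, 2 and 3) and Opa1 (0.10, −0.01 and −0.15) scatter there to both sides of Chow. The means of Mief1 and Yme1l1 lie 0.55 to the right in that panel.

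Other genes of the same pathways were counted from lists, with lower or higher meaning an unadjusted p under 0.05 in the limma fit (13.1% of all genes tested were lower). Of 10 further fusion and tethering genes, 5 were lower and 0 higher, with a median log2 fold change of −0.56 beside −0.01 for all genes tested. They included the prohibitins Phb2 (−0.65) and Phb (−0.69), an inner-membrane scaffold that stabilises long Opa1, and the inner-membrane ion transporter Letm1 (−0.47). The rest of the list, named after the values were seen, did not reach that level. Those were Miga1 (−0.03), Usp30 (−0.13), Miga2 (−0.28), Chchd10 (−0.84) and Pld6 (−0.78, on 7 to 18 reads). Of 10 further fission and adaptor genes tested, 3 were lower and 1 higher, with a median of −0.28. Mtfp1, an inner-membrane protein of fission, was among the lower, with an FPKM of 71.3, 75.6 and 70.0 in Chow and 48.4, 51.8 and 34.0 in HFpEF (log2 fold change −0.72, adjusted p = 0.119, limma). The other lower genes were the outer-membrane ubiquitin ligase March5 (−0.26) and Mtfr1l (−0.35), and the higher gene, named after its value was seen, was Spire1 (0.62). As among the 10 genes, the median was more negative on the fusion side, though the difference between the lists was not tested.

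The cristae-shaping MICOS complex and its partners, which act beside Opa1 in the inner membrane, had 9 of 11 genes lower and a median of −0.59. Apool (−0.71), Samm50 (−0.59) and Mtx2 (−0.48) had the smallest p. Of 11 other inner-membrane and matrix proteases, 9 were lower (median −0.50), with the matrix proteases Lonp1 (−0.57) and Clpx (−0.54) and the m-AAA subunit Afg3l1 (−0.47) first by p. Yme1l1, at −0.01, lay above all 11 of these proteases, whose highest value was −0.19. Of 5 genes for mitochondrial transport along microtubules, 4 were lower (median −0.47), among them Rhot2 (−0.68), Trak1 (−0.51) and Trak2 (−0.47). In the reference list of 12 mitochondrial genes 11 were lower (median −0.52), with Tomm22 (−0.51), Slc25a4 (−0.79) and Tomm20 (−0.34) first by p.

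Around Tfam, 6 of 15 tested genes for transcription and replication of mitochondrial DNA were lower (median −0.26), with Tefm (−0.82), Mterf2 (−0.54) and the helicase gene Twnk (−0.52) first. Of 6 regulators of Tfam, 2 were lower. Those were the coactivator gene Ppargc1b (−0.43) and the nuclear receptor gene Esrra (−0.53), while Ppargc1a (−0.51, adjusted p = 0.351, limma), the coactivator PGC-1α, had an FPKM of 6.49 in HFpEF replicate 3 against 15.1 and 14.1 in the other HFpEF hearts. Nrf1 was at 0.15, and the GABP subunit genes Gabpa and Gabpb1 were at 0.01 and −0.12, named for the sites searched in the start regions and after their values were seen. None of the genes in these lists had an adjusted p under 0.05 with all 6 libraries (limma). Without HFpEF replicate 3 the adjusted p was under 0.05 for 5 of the 10 other fusion genes, 1 of the 10 other fission genes, 8 of the 11 MICOS genes, 6 of the 11 proteases, 2 of the 15 genes for mitochondrial DNA, 1 of the 6 regulators, 2 of the 5 transport genes and 8 of the 12 reference genes, all lower, against 5.36% of all genes tested. The medians in that order were then −0.36, −0.22, −0.50, −0.40, −0.24, −0.15, −0.32 and −0.35, and Ppargc1a was at −0.12.

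**Figure D4:**
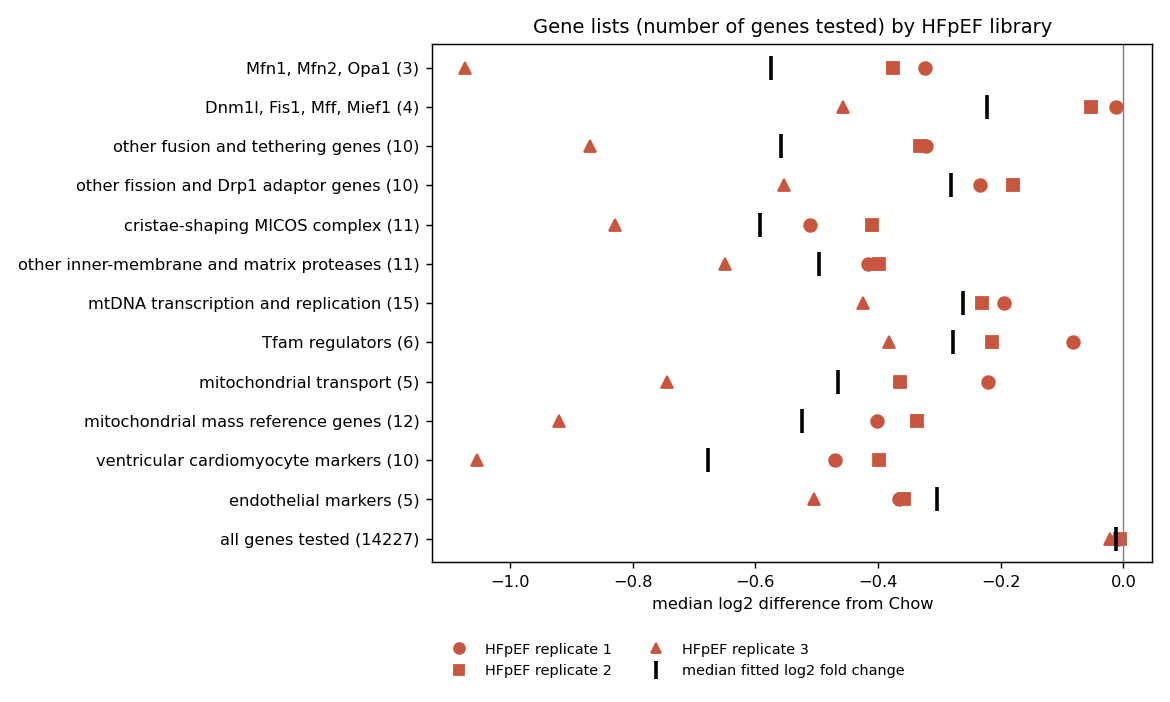
Median log2 difference from Chow (x axis) of each gene list in HFpEF replicates 1, 2 and 3 (red), with the median fitted log2 fold change (black bar) and the number of genes tested in brackets. Replicates 1 and 2 of Mfn1, Mfn2 and Opa1 lie at −0.32 and −0.37, near the mitochondrial reference genes, while those of the fission genes lie at −0.01 and −0.05, and replicate 3 lies lowest in each mitochondrial list.

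Genes with the profile most like a member were sought over the 6 libraries among 6450 genes with a mean FPKM of at least 5, by the root mean square of the log2 difference after centring on the Chow mean. Opa1, whose fitted difference with all 6 libraries was the largest of the fusion genes by a margin within its error (−0.59 against −0.57), was closest to Ptcd3 (0.0227), Pyurf (0.0320) and Vdac1 (0.0380). Vdac1, for example, had an FPKM of 390, 384 and 386 in Chow and 311, 305 and 182 in HFpEF, with the same step between HFpEF replicates 2 and 3. Dnm1l was closest to Cd59a (0.0384), Mtus2 (0.0480) and Etfrf1 (0.0480). These likenesses are over 6 libraries of which 1 stands apart, and they describe the shape of the profiles only.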

How the data were processed

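RNA-seq of left ventricular myocardium from 3 Chow and 3 HFpEF mice was used. Per the paper's methods, HISAT2 was used for alignment, featureCounts for gene counts and DESeq2 for testing. The authors deposited FPKM, and the labels name GRCm38. The annotation release, the FPKM formula and the strand setting are not given in the sources used here. Union exon lengths from GENCODE M21 (54495 of 54532 identifiers found) turned 96.0% to 96.2% of the FPKM into whole reads at a relative tolerance of 1e-06. The denominators implied were 11734336 to 14239712 reads in Chow and 13847565 to 19316914 in HFpEF, or 0.897 to 0.914 times the read totals in Chow and 1.03 to 1.27 times in HFpEF, so a scaling between libraries that ran with the group is built into the deposited values.

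After median-of-ratios rescaling and addition of 0.1, log2 values of 14227 genes (FPKM 0.5 or more in 3 or more libraries) were fitted with limma 3.58.1 (lmFit, eBayes with trend and robust options) in R 4.3.3, with Benjamini-Hochberg adjustment over all of them. The fit was tested on simulated data. Count models were not the main test because the deposited unit is FPKM. Exact permutation tests compared mean FPKM of single genes. Python 3.11.15 with pandas 2.3.3 and scipy 1.17.1 was used for the summaries. The 10 genes and the lists were chosen with earlier results of these data known. All 10 genes were described, with the 3 genes of smallest unadjusted p of each other mitochondrial list and the genes closest in profile to Opa1 and Dnm1l. Alternatives were other scalings, pseudocounts, filters and moderation, voom on recovered reads, a block for the replicate number, and fits without each library in turn. Relative levels, scaling to recovered read totals, the balance under quantile normalization and the lists without HFpEF replicate 3 were added after the data were seen. Start sequences came from RefSeq on GRCm38.p6. Protein data were not analysed here.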

Additional observations from a re-analysis of the deposited data

How the results depend on the processing

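The log2 fold changes of Mfn1, Mfn2, Opa1, Oma1 and Tfam stayed negative over all 17 fits, from −0.66 to −0.27 for Mfn1, −0.74 to −0.28 for Mfn2 and −0.72 to −0.29 for Opa1, with adjusted p (limma) from 0.0251 to 0.353, 0.0454 to 0.403 and 0.0373 to 0.390. The number of the 10 genes at an adjusted p under 0.05 was 0 to 3 when 1 library was left out, and 3 only without HFpEF replicate 3. The number at an unadjusted p under 0.05 was 2 with quantile normalization, 2 (1 lower and 1 higher) on the scale of recovered read totals, 3 with eBayes without trend and robust options and 1 to 5 when 1 library was left out (1 without each of the Chow libraries). Of all genes tested, 11.8% were lower at that level with quantile normalization and 11.6% without trend and robust options. On the scale of read totals 4.15% were lower and 3563 genes higher. The share lower was 7.5% to 14.8% when 1 library was left out. The fusion median was −0.72 to −0.33, the fission median −0.31 to −0.04 and the fusion to fission balance −0.44 to −0.32 in the same refits, which leave a group with 2 libraries. With quantile normalization the balance was −0.23. Over all genes tested, the count at an adjusted p under 0.05 was 14 with all libraries, 0 with voom, 3 and 5 at pseudocounts of 1 and 0.01, 20 with quantile normalization, 73 (69 of them higher) on the scale of read totals, 33 without trend and robust options, 2 without any 1 Chow library, and 3, 53 and 1169 without HFpEF replicates 1, 2 and 3. The causes of these shifts were not tested.

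Genes near 0 changed sign. With 1 library left out, Mief1 was −0.12 at the lowest (HFpEF replicate 1 out) and 0.15 at the highest (HFpEF replicate 3 out), with 3.9e-05 without Chow replicate 2, and Yme1l1 from −0.055 (without Chow replicate 1) to 0.025 (without Chow replicate 3), at 0.023 without HFpEF replicate 3. Yme1l1 was at 0.0027 with quantile normalization and 0.0089 with voom. On the scale of recovered read totals, added after the data were seen, the fission median was 0.073, and Dnm1l (0.027), Fis1 (0.090), Mff (0.056), Mief1 (0.27) and Yme1l1 (0.28) turned positive beside a median of 0.28 over all genes tested. Relative to the mitochondrial reference genes the difference was positive for Dnm1l (0.30), Fis1 (0.36), Mff (0.33), Mief1 (0.55), Oma1 (0.14), Yme1l1 (0.55) and Tfam (0.25). Relative to cardiomyocyte markers it was positive for Mfn1 (0.13), Mfn2 (0.12), Opa1 (0.11), Dnm1l (0.43), Fis1 (0.49), Mff (0.45), Mief1 (0.68), Oma1 (0.27), Yme1l1 (0.68) and Tfam (0.37). With replicate numbers as a block, 4 of the 10 genes had an unadjusted p under 0.05 (limma), where 11.9% of all genes tested were lower. In that fit 0 of the 10 had an adjusted p under 0.05, the adjusted p of Mfn1 was 0.194, and 2 genes passed over all genes tested. The labels do not say that the numbers pair the mice. Deviations of same-numbered libraries correlated across genes at −0.04, −0.07 and −0.06, and whether such libraries shared a batch was not tested. Each value of the 10 genes rested on 307 to 13754 reads, in 3 mice a group.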
